A study of Mus musculus with 12 samples.

Results

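Lmna, which encodes lamin A and lamin C of the nuclear lamina, was described together with 9 genes of the cytoskeleton and the cell cortex that T cells raise when they are activated and migrate, namely Vim, S100a4, S100a6, S100a10, Anxa1, Anxa2, Lgals1, Lgals3 and Ahnak. These 10 of the 52636 gene identifiers in the count table were chosen by name with earlier results of the same 12 libraries known, so their levels and fold changes are given as a description and without p-values. All 10 were found in the table and all 10 passed the filter on low counts. RNA was sequenced by QuantSeq, which reads transcripts from their 3′ ends, in CD8+ T cells that had been sorted on GFP out of AT3ova tumors. AT3ova is a mouse mammary carcinoma line that expresses ovalbumin, and 500000 cells were placed under the skin of female A2AR eGFP reporter mice of 6 to 16 weeks of age on the C57BL/6 background. In these mice eGFP is driven by the regulatory sequences of Adora2a, the gene of the adenosine receptor A2AR, on a bacterial artificial chromosome, so that GFP reports the activity of a transgene and all 4 groups carry it. The groups were GFP+ and GFP− cells of non-treated mice and GFP+ and GFP− cells of mice given anti-PD-L1, an antibody against the ligand of PD-1, at days 14 and 18. Tumors were harvested at day 21, and each group held 3 libraries that were each pooled from 3 mice.

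The lamina is a mesh of lamin filaments under the inner nuclear membrane, and its A-type lamins help set the stiffness of the nucleus, which has to deform when a cell squeezes through tissue. Resting T cells hold little A-type lamin and raise it after stimulation of the antigen receptor. Vimentin forms the intermediate filaments of the cytoplasm, small S100 proteins bind calcium and partner proteins, annexins bind phospholipid membranes when calcium is present, galectins bind β-galactosides on glycoproteins, and AHNAK is a very large scaffold below the plasma membrane. Higher expression of several of these genes is a familiar feature of effector and memory T cells compared with naive T cells.

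Total counts were 11292699 to 19023900 per library, and the CD8 T cell gene Cd8a was at 799 to 1360 CPM, which are counts scaled to a common library total with TMM factors and the unit of all levels below. Adora2a was at 60.2 to 111 CPM in the GFP+ libraries and at 19.7 to 34.6 CPM in the GFP− libraries. 2 GFP+ libraries, KT13 (non-treated) and KT21 (anti-PD-L1), stood apart from the rest, with a median Spearman correlation to the other libraries of 0.941 and 0.935 against 0.967 to 0.977, and results are therefore given with all 12 libraries and with the 10 others. Transcripts of other cells were present. The 12 macrophage markers summed to 157 to 230 CPM in non-treated GFP− libraries, to 211 to 288 in non-treated GFP+, to 78.9 to 136 in anti-PD-L1 GFP− and to 86.8 to 173 in anti-PD-L1 GFP+ libraries, with all 12 detected in the GFP+ libraries and in the GFP− libraries. The 4 NK cell genes, some of which CD8 T cells also express, summed to 122 to 137 CPM in non-treated GFP− against 193 to 225 CPM in GFP+ libraries, and to 89.5 to 116 against 167 to 242 CPM after anti-PD-L1. The 6 CD8 T cell genes summed to 3657 to 3892 against 3022 to 3726 CPM and, after anti-PD-L1, to 4199 to 4400 against 3732 to 5091 CPM. Dendritic cell genes summed to 49.0 to 123 CPM over the libraries, with the non-treated GFP+ libraries (87.1 to 123 CPM) above the non-treated GFP− ones (56.9 to 84.6 CPM). This sum was mainly that of H2-Ab1 (10098 counts) and Itgax (3004 counts). Zbtb46 had 209 counts, and Flt3, Xcr1, Clec9a and Cd209a at most 28 each, so the sum says little about these genes. Over all libraries, fibroblast genes summed to 0.666 to 80.3 CPM, epithelial genes to 135 to 325, haemoglobin and other red cell genes to 124 to 579, CD4 T cell genes to 7.41 to 26.1, endothelial genes to 9.55 to 24.7, B cell genes to at most 7.13 and neutrophil genes to at most 7.43 CPM. The epithelial sum was mainly that of Cdh1, with 38644 counts against 1575 for Krt18, 1217 for Epcam and 521 for Krt8. In the CD4 T cell list Foxp3 had 2976 counts and Cd4 itself 38. Macrophages are rich in several of the genes described here, such as Lgals3, Vim and Anxa1, and the part of other cells' transcripts in the values was not tested.

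Promoter windows of RefSeq, 250 bases before to 50 after a start site of each gene, were matched for 8 of the 10 genes, and S100a10 and Lgals1 had no entry. The windows of Lmna and Lgals3 lie inside the annotated spans of these genes (chr3:88480147-88509956 and chr14:47367751-47386160), not at their outer starts. The 150 bases before the start site are shown in build GRCm38 for Lmna, whose level differed most between GFP+ and GFP− cells of non-treated tumors, for S100a4 and Lgals3, which were lower in GFP+ cells with it, and for Anxa2, which was not. Letters run 5′ to 3′ on the strand of the gene, and capitals mark matches on either strand to an Sp1 box, a TATA box or an AP-1 element.
Lmna, chr3:88503353-88503502, minus strand: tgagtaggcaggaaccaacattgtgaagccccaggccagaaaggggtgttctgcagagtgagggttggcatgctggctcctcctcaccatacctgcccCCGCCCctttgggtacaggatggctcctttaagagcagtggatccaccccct
S100a4, chr3:90603620-90603769, plus strand: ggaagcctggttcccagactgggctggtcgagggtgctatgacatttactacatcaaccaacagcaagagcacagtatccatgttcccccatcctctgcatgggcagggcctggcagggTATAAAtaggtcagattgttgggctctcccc
Lgals3, chr14:47373710-47373859, plus strand: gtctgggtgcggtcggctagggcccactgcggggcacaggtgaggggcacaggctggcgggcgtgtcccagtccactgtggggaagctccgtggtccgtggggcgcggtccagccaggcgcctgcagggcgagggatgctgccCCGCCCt
Anxa2, chr9:69453533-69453682, plus strand: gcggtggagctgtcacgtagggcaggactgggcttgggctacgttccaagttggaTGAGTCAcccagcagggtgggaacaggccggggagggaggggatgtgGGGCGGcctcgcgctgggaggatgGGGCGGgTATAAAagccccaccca

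Anxa2 was the gene with the most matches among these windows, with an AP-1 element 95 bases before the start, Sp1 boxes at −190, −48 and −24, of which the first lies outside the letters shown, and a TATA box at −17. S100a4 had a TATA box at −31, and matches to the same box stood at −32 in Vim and in Anxa1. Lmna, which has a pair of windows, had an Sp1 box at −52 and an AP-1 element at 39 in the first, the latter past the start site and not shown. Lgals3 had Sp1 boxes at −7 and 4, Ahnak at −78, −68, −39 and 39, and S100a6 had no match. Among all 32851 windows, 7.81% held an AP-1 element, searched as TGANTCA. An Sp1 box, searched as GGGCGG, was in 35.7% and a TATA box was in 13.6% of them, the latter searched as TATAAA. No window of the 8 genes held a cyclic AMP response element (TGACGTCA, 1.79% of all windows), a STAT element (TTCNNNGAA, 8.3%) or an SRF CArG box (1.63%). Matches were sought on both strands and did not overlap each other in these genes. A match is a description of letters and not a bound site.

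By position, 4 of the 10 genes lay on chromosome 3. Lmna was at chr3:88480147-88509956 on the minus strand, S100a4 at chr3:90603771-90606045, S100a6 at chr3:90612882-90624181 and S100a10 at chr3:93555080-93564643, the S100 genes being on the plus strand. Anxa1 and Ahnak shared chromosome 19. Other annotated genes overlapped S100a4, Anxa1 and Anxa2, but each of these 4 overlapping genes (Gm42674, 1500015L24Rik, Gm16144 and Mir3109) held 0 counts over all 12 libraries. Counts were made per gene, so that lamin A and lamin C, which come from the same gene, are not told apart.

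The comparison of GFP+ with GFP− cells asks how the genes differ between cells with high and low activity of the A2AR reporter. In the count data of all 12 libraries, 8 of the 10 genes had a log2 fold change below 0 in non-treated and 9 of 10 in anti-PD-L1 tumors, and 8 were below 0 in both. Lmna was lowest against GFP− cells in non-treated tumors, at 0.531 times the GFP− level. Anxa2 was the single gene above 0 in both, and Ahnak differed in sign between the treatments. The median log2 fold change of the 10 genes was −0.50 without treatment and −0.39 after it, against 0.00 and 0.00 over all 14173 tested genes.

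**Figure D1:**
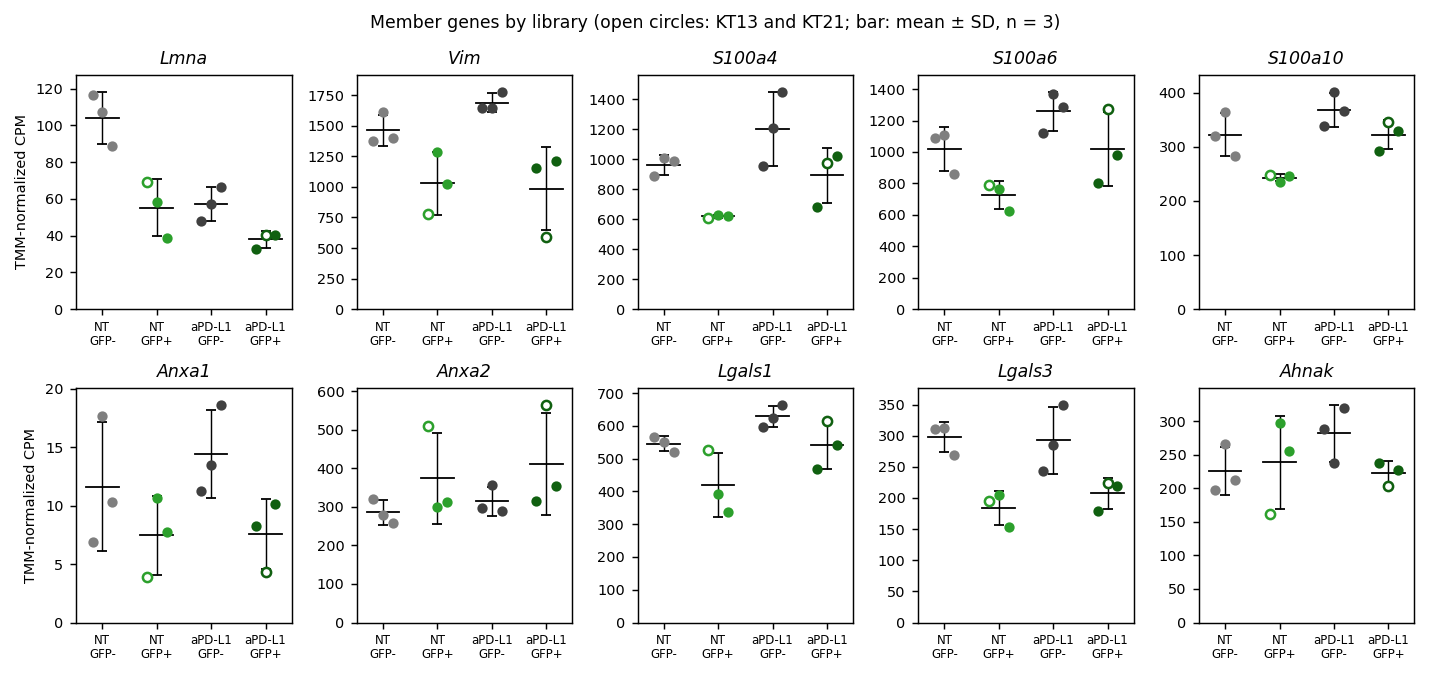
TMM-normalized CPM (y axis, from 0) of each of the 10 genes in the 12 libraries, grouped on the x axis by treatment (NT, non-treated, or anti-PD-L1) and GFP, with the mean and SD of 3 libraries as bars and KT13 and KT21 as open circles. All 6 GFP+ libraries lie below all 6 GFP− libraries for Vim (at most 1285 against at least 1377 CPM) and Lgals3 (at most 224 against at least 243 CPM). The share of all genes for which this held is not given here.

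Lmna was at 116, 107 and 88.7 CPM in the 3 non-treated GFP− libraries and at 69.1, 58.4 and 38.5 CPM in the 3 non-treated GFP+ libraries. After anti-PD-L1 it was at 48.0, 57.3 and 66.7 CPM in GFP− and at 32.9, 40.6 and 40.3 CPM in GFP+ libraries. Each GFP+ library was therefore below each GFP− library of the same treatment, although the non-treated GFP+ and the anti-PD-L1 GFP− libraries overlapped. The log2 fold change of GFP+ against GFP− was −0.91 (SE 0.21) in non-treated and −0.60 (SE 0.21) in anti-PD-L1 tumors, and without KT13 and KT21 it was −1.10 (SE 0.18) and −0.65 (SE 0.18). Ordered by mean level, the groups ran from anti-PD-L1 GFP+ (37.9 CPM) over non-treated GFP+ (55.3) and anti-PD-L1 GFP− (57.3) to non-treated GFP− (104 ± 14.1, SD, n = 3), and of the neighbours in this order only the last pair did not overlap. In a bulk library, fewer cells that express a gene and less RNA of it per cell cannot be told apart.

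Lmnb1, the main B-type lamin, which is present in nearly all nuclei, gave a reference for the lamina within each library. It was at 187 to 215 CPM in non-treated GFP− libraries and at 171 to 210 CPM in non-treated GFP+ libraries, with a log2 fold change of −0.10 (SE 0.16) that edgeR did not call (adjusted p = 0.964). The ratio of Lmna to Lmnb1 counts was 0.542, 0.574 and 0.446 in the non-treated GFP− libraries and 0.329, 0.329 and 0.225 in the non-treated GFP+ libraries. After anti-PD-L1 it was 0.198, 0.306 and 0.385 in GFP− and 0.180, 0.194 and 0.243 in GFP+ libraries. The ratio thus separated GFP+ from GFP− libraries in non-treated tumors, while KT20 (0.198) lay between GFP+ libraries after anti-PD-L1.

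Vim, the intermediate filament gene, was at 1377, 1609 and 1401 CPM in non-treated GFP− libraries and at 774, 1285 and 1023 CPM in non-treated GFP+ libraries, KT13 being the lowest. With anti-PD-L1 the GFP− libraries were at 1645, 1642 and 1776 CPM and the GFP+ libraries at 1152, 594 and 1210 CPM, KT21 being the lowest. The GFP+ libraries were below the GFP− libraries in both treatments, also without KT13 and KT21, where the range of GFP+ was 1023 to 1285 CPM. Log2 fold changes were −0.51 (SE 0.24) and −0.78 (SE 0.24) with 12 libraries, and −0.34 (SE 0.11) and −0.52 (SE 0.11) with 10, below 0 in each case.

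Of the S100 genes, S100a4 encodes a calcium-binding protein tied to cell motility. It was at 887, 1008 and 988 CPM in non-treated GFP− libraries and at 607, 628 and 620 CPM in non-treated GFP+ libraries, the smallest spread relative to the mean in any group of the 10 genes. After anti-PD-L1 the GFP− libraries spread from 954 over 1208 to 1444 CPM and the GFP+ libraries were at 683, 973 and 1020 CPM, so that the groups overlapped. The log2 fold change was −0.64 (SE 0.18) in non-treated and −0.43 (SE 0.18) in anti-PD-L1 tumors.

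S100a6, or calcyclin, was at 1091, 1109 and 860 CPM in non-treated GFP− libraries against 789, 763 and 623 CPM in GFP+, and at 1122, 1367 and 1283 CPM against 803, 1273 and 983 CPM after anti-PD-L1. The high value among the treated GFP+ libraries was KT21 (1273 CPM), and without it the GFP+ libraries were below all GFP− libraries of their treatment. Log2 fold changes were −0.49 (SE 0.18) and −0.30 (SE 0.18) with 12 libraries, and −0.56 (SE 0.13) and −0.49 (SE 0.13) with 10.

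S100a10, the partner of annexin A2 in a membrane-bound complex, was at 321, 364 and 283 CPM in non-treated GFP− libraries and at 248, 236 and 246 CPM in GFP+. With anti-PD-L1 it was at 339, 401 and 366 CPM in GFP− and at 293, 346 and 329 CPM in GFP+ libraries, where KT21 (346 CPM) exceeded 1 GFP− library (KT20, 339 CPM). The log2 fold change was −0.41 (SE 0.14) in non-treated and −0.19 (SE 0.14) in anti-PD-L1 tumors.

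Anxa2 behaved unlike its partner. It was at 320, 280 and 257 CPM in non-treated GFP− libraries and at 510, 300 and 312 CPM in GFP+ libraries, and after anti-PD-L1 at 297, 357 and 289 CPM in GFP− and at 316, 563 and 355 CPM in GFP+ libraries. The high values were those of KT13 (510 CPM) and KT21 (563 CPM), the other 10 libraries reaching at most 357 CPM. The log2 fold change accordingly went from 0.39 (SE 0.24) to 0.10 (SE 0.12) in non-treated tumors and from 0.39 (SE 0.24) to 0.09 (SE 0.12) in anti-PD-L1 tumors when these libraries were left out. As a result of both genes' values, the ratio of S100a10 to Anxa2 counts was at least 1.002 and at most 1.30 in the 6 GFP− libraries and 0.485 to 0.926 in the 6 GFP+ libraries, without overlap, and the 4 GFP+ libraries other than KT13 and KT21 stood at 0.786, 0.788, 0.926 and 0.926.

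Anxa1, which encodes a phospholipid-binding protein known for limiting inflammation, had 1879 counts over all libraries. It was at 6.92, 17.7 and 10.3 CPM in non-treated GFP− and at 3.92, 10.6 and 7.77 CPM in non-treated GFP+ libraries, which overlapped. After anti-PD-L1 the GFP− libraries were at 11.2, 13.5 and 18.6 CPM and the GFP+ libraries at 8.24, 4.32 and 10.1 CPM, without overlap. The lowest value of each treatment was that of KT13 or KT21, and the log2 fold changes, −0.64 (SE 0.42) and −0.93 (SE 0.42), became −0.34 (SE 0.33) and −0.65 (SE 0.33) without them.

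Among the galectins, Lgals1 encodes a secreted dimer that can induce death of activated T cells. It was at 565, 552 and 522 CPM in non-treated GFP− libraries and at 528, 391 and 338 CPM in GFP+, and after anti-PD-L1 at 597, 625 and 663 CPM in GFP− and at 467, 615 and 540 CPM in GFP+ libraries. The overlap in each treatment came from KT13 (528 CPM) and KT21 (615 CPM). With 12 libraries the log2 fold changes were −0.38 (SE 0.17) and −0.22 (SE 0.17), and with 10 they were −0.58 (SE 0.11) and −0.32 (SE 0.11).

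Lgals3, whose product forms lattices with glycoproteins at the cell surface, was at 311, 312 and 269 CPM in non-treated GFP− libraries against 194, 205 and 153 CPM in GFP+. After anti-PD-L1 it was at 243, 286 and 349 CPM in GFP− against 178, 224 and 220 CPM in GFP+ libraries. As for Vim, the highest of the 6 GFP+ libraries (224 CPM) was below the lowest of the 6 GFP− libraries (243 CPM). KT13 and KT21 were within the range of the others, and log2 fold changes were −0.69 (SE 0.17) and −0.50 (SE 0.17) with 12 libraries and −0.74 (SE 0.15) and −0.56 (SE 0.15) with 10.

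Ahnak was at 197, 266 and 213 CPM in non-treated GFP− libraries and at 162, 298 and 255 CPM in GFP+, and after anti-PD-L1 at 288, 237 and 320 CPM in GFP− and at 238, 203 and 227 CPM in GFP+ libraries. The groups overlapped in both treatments. The log2 fold change was 0.08 (SE 0.21) in non-treated and −0.34 (SE 0.21) in anti-PD-L1 tumors, and 0.29 (SE 0.14) and −0.28 (SE 0.14) without KT13, which held the lowest value, and KT21.

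**Figure D2:**
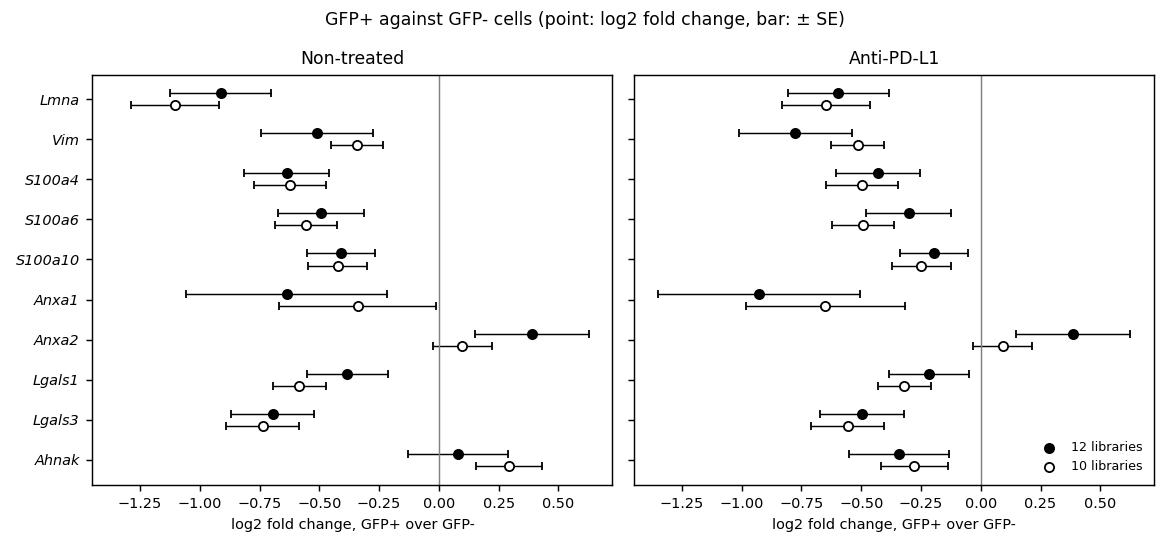
Log2 fold change of GFP+ over GFP− cells (x axis) for each of the 10 genes (y axis) in non-treated and anti-PD-L1 tumors, with bars of 1 SE, from all 12 libraries (filled) and from the 10 libraries without KT13 and KT21 (open). Lmna lies farthest left in non-treated tumors (−0.91 and −1.10), and Anxa2 alone lies to the right of 0 in both.

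By whole groups of libraries, 6 of the 10 genes (Lmna, Vim, S100a4, S100a6, S100a10 and Lgals3) were lower in all non-treated GFP+ than in all non-treated GFP− libraries, where 6.63% of all tested genes were, and 4 (Lmna, Vim, Anxa1 and Lgals3) were after anti-PD-L1, where 5.33% of all genes were. With 10 libraries these were 7 genes in each treatment, against 12.9% and 10.6% of all genes. Lmna, Vim and Lgals3 were in both sets with 12 libraries, and Lgals1, S100a6 and S100a10 joined them with 10. The share of all genes that were in both sets is not given here. In the edgeR fit of all genes, 0 of the 10 were called at an adjusted p under 0.05 in either treatment with 12 libraries, where 0.00706% and 0.0282% of all genes were called. At an unadjusted p under 0.05 were 7 and 5 of the 10, against 857 and 578 of all 14173 genes. With 10 libraries, Lmna, Lgals1 and Lgals3 were called in non-treated tumors (0.339% of all genes) and 0 after anti-PD-L1 (0.17%). Then 8 and 6 had an unadjusted p under 0.05, against 1362 and 788 of all 14747 genes. Further fits left out 1 more library. Where every group kept more than 1 library, such fits called 17 to 53 of all genes in non-treated tumors and 16 to 37 after anti-PD-L1. In non-treated tumors Lmna was called in each of them. Lgals1 was called in all but that without KT14, and Lgals3 in those without KT18, KT20 or KT24. S100a4 was called in that without KT24 and S100a6 in that without KT18. After anti-PD-L1, Vim was called in those without KT14 or KT16. The fits without KT15 or KT17 leave 1 non-treated GFP+ library, and those without KT19 or KT23 leave 1 anti-PD-L1 GFP+ library. That library is then assumed to vary like the other groups, and calls of the 10 genes in these fits are not given. Since the 10 genes were chosen with these contrasts known, nothing is read from their counts.

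The comparison of anti-PD-L1 with non-treated tumors asks what blockade of PD-L1 did to the genes within each sort fraction. It shares its libraries with the comparisons above. In GFP− cells, Lmna was at 0.551 times the non-treated level, from 88.7 to 116 down to 48.0 to 66.7 CPM, with a log2 fold change of −0.86 (SE 0.21) and no overlap. The other genes lay between −0.03 (SE 0.17) for Lgals3 and 0.32 for S100a4 (SE 0.18) and Ahnak (SE 0.21). Lgals1, S100a6 and Vim were higher in all 3 treated than in all 3 non-treated GFP− libraries, 3 of 10 genes against 6.08% of all genes, and Lmna was the 1 gene lower in all, against 6.26%.

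In GFP+ cells the Lmna values after anti-PD-L1 (32.9 to 40.6 CPM) overlapped the non-treated ones (38.5 to 69.1 CPM), with a log2 fold change of −0.54 (SE 0.21), or −0.41 (SE 0.20) with 10 libraries. The 3 S100 genes had positive values in these cells, 0.53 (SE 0.18) for S100a4, 0.49 (SE 0.18) for S100a6 and 0.41 (SE 0.14) for S100a10, and were higher in all 3 treated than in all 3 non-treated libraries, where 4.66% of all genes were. Lgals1 had a log2 fold change of 0.37 (SE 0.17). Vim, Anxa1, Anxa2, Lgals3 and Ahnak lay between −0.10 and 0.17. Lmna therefore stood opposite to the S100 genes, lower with treatment where they were higher, and the same signs held with 10 libraries (S100a4 0.45, SE 0.16, and S100a6 0.37, SE 0.14).

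**Figure D3:**
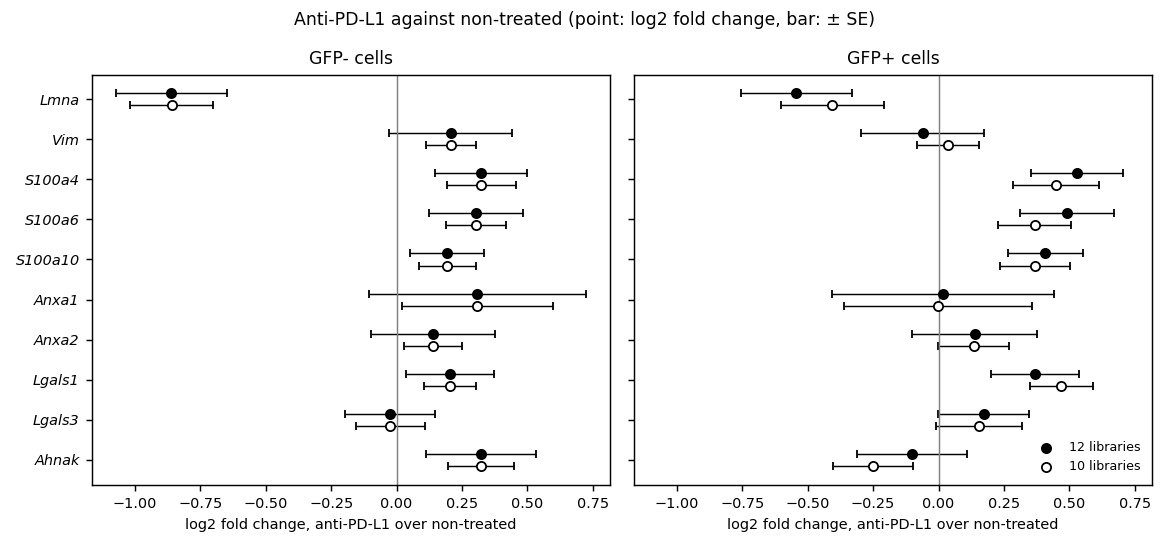
Log2 fold change of anti-PD-L1 over non-treated (x axis) for the 10 genes (y axis) in GFP− and in GFP+ cells, with bars of 1 SE, from 12 libraries (filled) and from 10 (open). Lmna is left of 0 in both panels (−0.86 in GFP− and −0.54 in GFP+ cells), and S100a4, S100a6, S100a10 and Lgals1 are right of 0 in both.

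The median log2 fold change of the 10 genes was 0.15 in GFP+ and 0.20 in GFP− cells, against −0.01 and −0.01 over all genes. In the fit of 12 libraries 0 of the 10 were called in GFP+ (0.0141% of all genes) and 0 in GFP− cells (0% of all genes). At an unadjusted p under 0.05 were 5 and 1, against 955 and 487 of all 14173 genes. With 10 libraries 0 were called in GFP+ (0.563% of all genes) and Lmna was in GFP− cells (0.373%), a call that was lost without KT14, KT20 or KT22. At an unadjusted p under 0.05 were then 4 and 6, against 1260 and 1064 of all 14747 genes. As the 10 genes were chosen with earlier results of these libraries known, nothing is read from these counts. The sum of macrophage markers was also lower after anti-PD-L1 in GFP− libraries (78.9 to 136 CPM against 157 to 230 CPM) and in GFP+ libraries (86.8 to 173 CPM against 211 to 288 CPM). Fibroblast genes were lower too in GFP+ libraries, at 0.666 to 17.1 against 20.9 to 80.3 CPM. There, endothelial genes were at 9.92 to 15.8 against 20.3 to 24.7 CPM. The epithelial sum was at 135 to 198 against 210 to 306 CPM. For the dendritic sum it was 49.3 to 81.7 against 87.1 to 123 CPM. In GFP− libraries the fibroblast, endothelial, epithelial and dendritic sums overlapped between the treatments. The part of other cells' transcripts in the treatment values was not tested.

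Whether GFP+ and GFP− cells differed in their response to anti-PD-L1 was asked by the interaction of GFP and treatment. Of the 10 genes 0 were called, as were 0% of all genes, both with 12 and with 10 libraries. At an unadjusted p under 0.05 there were 0 of the 10 genes with 12 libraries (295 of all 14173 genes) and 1 with 10 (632 of all 14747). Nothing is read from these counts either. The interaction was 0.32 (SE 0.30) for Lmna, whose treated-to-non-treated ratio was 0.551 in GFP− and 0.686 in GFP+ cells. Ahnak had the value farthest from 0, −0.42 (SE 0.30) with 12 and −0.57 (SE 0.20) with 10 libraries.

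Genes of the same families and of the actin cytoskeleton that are not among the 10 were listed for comparison, 92 in all, of which 91 were in the table and 75 passed the filter. In edgeR with 12 libraries 0 of the 75 were called in each of the 5 comparisons. Their number at an unadjusted p under 0.05 was 3 for GFP in non-treated tumors, 2 for GFP after anti-PD-L1, 4 for anti-PD-L1 in GFP+ cells, and 0 for anti-PD-L1 in GFP− cells and for the interaction. Among all 14173 genes the numbers were 857, 578, 955, 487 and 295 in the same order of comparisons. DESeq2 called S100a11, for anti-PD-L1 in GFP+ cells, where the share of all genes that DESeq2 called is not given here. The median log2 fold change of the 75 was −0.02 for GFP+ against GFP− in non-treated tumors, where 39 were below 0 and 36 above, and −0.07 after anti-PD-L1, where 41 were below 0 and 34 above.

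**Figure D4:**
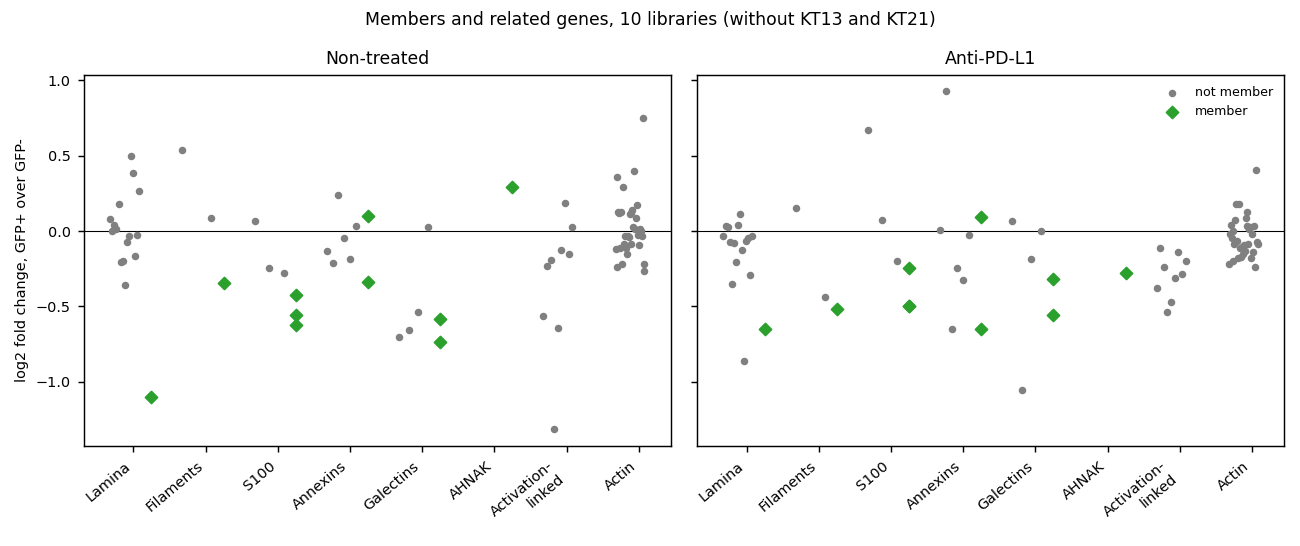
Log2 fold change of GFP+ over GFP− cells (y axis) in the 10 libraries without KT13 and KT21, for the 10 genes (green diamonds) and the 71 listed related genes with a mean of at least 1 CPM (grey points), by family (x axis). In non-treated tumors the 32 actin genes lie between −0.26 and 0.75, the 15 lamina genes between −0.36 and 0.49, and Lmna at −1.10.

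Emp3, a small membrane protein gene listed with activation-linked genes, was the 1 related gene that passed the test with 10 libraries. It was at 166, 150 and 140 CPM in non-treated GFP− libraries and at 151 (KT13), 95.0 and 100.3 CPM in GFP+ libraries. Without KT13 and KT21 its log2 fold change was −0.64 (SE 0.13, edgeR adjusted p = 0.0252), and with all 12 libraries it was −0.40 (SE 0.20, edgeR adjusted p = 0.854), so that the call rests on leaving KT13 and KT21 out. With 1 more GFP− library left out, Emp3 was still called without KT18 (edgeR adjusted p = 0.0296), KT20 (0.0327), KT22 (0.0442) or KT24 (0.0256). It was not called without KT14 (edgeR adjusted p = 0.109) or KT16 (0.0519). Without KT15 (edgeR adjusted p = 0.275) or KT17 (0.118) it was not called either, but these fits hold a single non-treated GFP+ library, which is assumed to vary like the other groups. Capg, which caps actin filaments, was at 149 to 183 CPM in GFP− and at 107 to 142 CPM in GFP+ libraries of non-treated tumors, with a log2 fold change of −0.43 (SE 0.18, edgeR adjusted p = 0.781) with 12 and −0.56 (SE 0.13, edgeR adjusted p = 0.0597) with 10 libraries, neither called. Emp1, of the same small family as Emp3, had the value farthest from 0 of this list at low counts. It was at 12.3, 7.61 and 10.8 CPM in non-treated GFP− and at 3.29, 6.14 and 2.06 CPM in non-treated GFP+ libraries, without overlap, with a log2 fold change of −1.41 (SE 0.45, edgeR adjusted p = 0.596) with 12 and −1.32 (SE 0.40, edgeR adjusted p = 0.219) with 10 libraries. It was called in 1 of the 10 fits with 1 more library left out, that without KT15, in which the GFP+ arm is a single library. Over the 9 genes of this list, 5 were below 0 without treatment and 8 after anti-PD-L1 with 12 libraries, and 7 and 9 were with 10.

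Among lamina genes, 15 were tested and 0 called, with a median log2 fold change for GFP+ against GFP− of −0.05 without treatment and −0.10 after anti-PD-L1. The values farthest from 0 belonged to the large nesprin genes Syne2 in non-treated (0.53, SE 0.25, edgeR adjusted p = 0.835) and Syne1 in anti-PD-L1 tumors (−0.69, SE 0.44, edgeR adjusted p = 0.993). Syne1 was at only 2.13 to 5.64 CPM, where fold changes rest on few reads. With 10 libraries Syne1 was at 0.49 for GFP in non-treated tumors and at −0.86 after anti-PD-L1. Lmnb2, the second B-type lamin, had −0.32 (SE 0.20, edgeR adjusted p = 1) for anti-PD-L1 in GFP− cells, the contrast in which Lmna had −0.86. With anti-PD-L1 in GFP+ cells, where Lmna had −0.54, Syne1 had −0.74 (SE 0.44, edgeR adjusted p = 0.853), and in the interaction, where Lmna had 0.32, Syne1 had −0.92 (SE 0.62, edgeR adjusted p = 1).

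Among S100 genes outside the 10, 5 were tested, and S100a11 encodes a partner of annexin A1. It was at 168, 195 and 146 CPM in non-treated GFP+ libraries and at 240, 283 and 261 CPM in anti-PD-L1 GFP+ libraries, without overlap. The log2 fold change was 0.63 (SE 0.15, edgeR adjusted p = 0.236) with 12 libraries and 0.56 (SE 0.15, edgeR adjusted p = 0.0999) with 10, while DESeq2 called it (0.63, adjusted p = 0.0248). Without the share of all genes that DESeq2 called, nothing is read from that call. S100a8 and S100a16 were at most at 0.89 and 1.16 CPM in any library, where fold changes rest on few reads.

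Of the other annexins, 7 were tested. Anxa4 was at 12.7, 14.3 and 13.3 CPM in anti-PD-L1 GFP− and at 7.73, 8.49 and 9.41 CPM in anti-PD-L1 GFP+ libraries, without overlap, with a log2 fold change of −0.65 (SE 0.27, edgeR adjusted p = 0.993). Anxa3 was at most at 3.001 CPM in any library. Of the other galectins, 4 were tested, and Lgals4 (3.41 to 7.49 CPM) and Lgals7 (0.73 to 7.58 CPM) had the values farthest from 0 with 12 libraries, which were 0.83 (SE 0.50) for Lgals4 in the interaction and 0.58 (SE 0.84) for Lgals7 with anti-PD-L1 in GFP+ cells. Neither was called. With 10 libraries Lgals7 was at −1.06 (SE 0.82) for GFP after anti-PD-L1, also not called. The ratio of Lgals1 to Lgals9, which encodes another galectin of T cells, was 5.69 to 6.70 in non-treated GFP− and 3.84 to 5.39 in non-treated GFP+ libraries, and 7.05 to 8.84 in anti-PD-L1 GFP− and 3.86 to 6.72 in anti-PD-L1 GFP+ libraries, with no overlap in either treatment.

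The genes whose pattern was most like that of Lmna were found by Pearson correlation of log2(CPM + 0.5) over the libraries, given here as a description since the libraries share their groups. Over 12 libraries these were Gm8696 (r = 0.89), Crybg2 (0.88), Ifi203-ps (0.88), Gm13642 (0.85) and Trafd1 (0.85). Over the 10 libraries they were Foxo1 (0.94), a transcription factor of quiescent T cells, C4a (0.94), Ptcra (0.93), Map3k3 (0.93) and Prdx1 (0.92), so that the names depended on KT13 and KT21. In any library Ptcra reached at most 0.851 CPM, C4a 3.45, Gm13642 4.47 and Gm8696 5.50 CPM, where correlations rest on few reads. Foxo1 was at 109 to 111 CPM in non-treated GFP− libraries, at 92.8 to 99.5 CPM in non-treated GFP+, at 99.1 to 105 CPM in anti-PD-L1 GFP− and at 89.5 to 104 CPM in anti-PD-L1 GFP+ libraries, a much narrower span than that of Lmna.

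Within the 10 genes, Lgals3 followed Lmna most closely (r = 0.71 over 12 and 0.78 over 10 libraries), then Vim (0.39 and 0.52). Lgals1 (0.29 and 0.39), S100a4 (0.25 and 0.37), S100a6 (0.24 and 0.41), S100a10 (0.14 and 0.27) and Anxa1 (0.24 and 0.27) were less alike. Ahnak (−0.14 and −0.22) and Anxa2 (−0.30 and −0.46) ran the other way. The 10 genes thus did not form a single pattern over the 4 groups. Lmna was highest in non-treated GFP− cells. Vim, the S100 genes, Anxa1, Lgals1 and Ahnak were highest on average in anti-PD-L1 GFP− cells, while Lgals3 was level between both GFP− groups, and Anxa2 was highest on average in anti-PD-L1 GFP+ cells with 12 and with 10 libraries.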

How the data were processed

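QuantSeq 3′ libraries of sorted CD8+ T cells were analysed, 12 in all, and assigned to 4 groups of 3 by their sample labels. The authors deposited raw read counts per Ensembl gene, without normalization, after trimming (cutadapt 1.7), HISAT2 alignment to mm10 and counting with featureCounts (Subread 1.6.4) per the labels, while the methods name other versions. The strand setting, the annotation release and the handling of reads with several matches are not given in the sources used here. Reads carry no molecular identifiers.

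Symbols were taken from GENCODE vM21 (52403 identifiers matched). Counts were normalized by TMM, filtered with filterByExpr and tested with the quasi-likelihood F test of edgeR 4.0.16 (R 4.3.3) in 1 fit over the 12 libraries, without covariates, with Benjamini-Hochberg adjustment at 0.05. Each SE was derived as the absolute log2 fold change divided by the square root of the F statistic. The code was tested on simulated data. Alternatives were DESeq2 1.42.0, upper-quartile factors, at least 10 counts in every library, no filter above 1 count in all, fits of the compared groups alone, and leaving out libraries. The 10 genes, the related and marker lists and the 10-library set were chosen with earlier results of these data known. Named are the 10 genes, related genes called with 12 or 10 libraries, the lamina, S100, annexin or galectin gene with the largest fold change per comparison, and the 5 genes most like Lmna. Capg, Emp1, Lmnb1, Lgals9 and the DESeq2 result of S100a11 were added after values were seen. Labels give no batch and no pairing, and the sources do not say whether GFP+ and GFP− fractions came from the same mice. The libraries were therefore tested as unpaired, and p-values rest on the spread between the libraries of a group. No library was a copy of another (chi-square per degree of freedom of at least 11.9 within groups).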

Additional observations from a re-analysis of the deposited data

How the results depend on the processing

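Of the 10 genes, 0 were called by edgeR with 12 libraries in each comparison. For GFP+ against GFP− in non-treated tumors, 3 were called without KT13 and KT21 (Lmna, Lgals1 and Lgals3), 1 by DESeq2 (Lmna) and 1 with no filter beyond 1 count (Lmna), and after anti-PD-L1 1 with no such filter (Vim). For anti-PD-L1 in GFP− cells, 1 (Lmna) was called without KT13 and KT21, 1 with no filter beyond 1 count and 1 with only the groups compared. Among the 75 related genes, 0 of which were called with 12 libraries, 1 (Emp3) was called for GFP in non-treated tumors without KT13 and KT21, and 1 (S100a11) by DESeq2 for anti-PD-L1 in GFP+ cells. Without KT13 and KT21, 0.339% of all genes were called for GFP in non-treated tumors and 0.373% for anti-PD-L1 in GFP− cells. For DESeq2, the fit without the filter and the fit of the compared groups, the share of all genes called is not given here. Nothing is therefore read from these calls. The cause of the differing calls was not tested. Leaving out 1 of the 12 libraries in turn, both counts were 0 in every comparison. Of 890 fold changes of the 10 genes under these alternatives, all 890 stayed within 1 SD of libraries and 25 had the other sign, between −0.28 (Anxa1) and 0.29 (Anxa2), the others being of Ahnak, Vim, Lgals3 and S100a6. That SD is of single libraries within groups over all 12, with KT13 and KT21. It is a wide limit, within which a sign could change, so little is read from it. Starting from the 10 libraries and leaving out 1 more, the fold change of Lmna in non-treated tumors ran from −1.43 to −0.83, where the fits without KT15 or KT17 hold 1 non-treated GFP+ library, assumed to vary like the other groups. No paired analysis was possible because the labels give the libraries codes that no groups share. The fit of only the groups compared was not run for the interaction, which needs all 4.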
